A study of Homo sapiens with 4 samples.

Results

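The 10 genes described here encode the core proteins that write, read and maintain heterochromatin. They were taken by name from the 28775 genes of the count table and are the corepressor gene TRIM28, the HP1 genes CBX1, CBX3 and CBX5, the histone H3 lysine 9 (H3K9) methyltransferase genes SUV39H1, SUV39H2, EHMT1 and EHMT2, and the DNA methylation maintenance genes DNMT1 and UHRF1. Each was found by its Entrez identifier and all 10 passed the filter on low counts, which left 16675 genes. RNA was sequenced from HEK293T, a human embryonic kidney cell line transformed with adenovirus DNA that also carries the large T antigen. MORC2 KO replicate 1 was edited with gRNA 1 and MORC2 KO replicate 2 with gRNA 2, both delivered with Cas9 protein, and 2 WT replicates carried the MORC2 wild-type genotype and no gRNA. The KO samples were bulk populations of edited cells and not single clones, so unedited copies of MORC2 can remain in them. The labels name HEK293T, while the methods call the electroporated cells HEK293. The sources used here do not state whether the WT cells were electroporated, so gene loss and handling cannot be told apart.

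Heterochromatin is the compacted, silent fraction of the genome and is marked by methylated H3K9. KRAB zinc finger proteins bring TRIM28 to their DNA targets, and TRIM28 recruits methyltransferases and HP1 proteins. SUV39H1 and SUV39H2 place the trimethyl mark, EHMT1 and EHMT2 act as a heterodimer that places mono- and dimethyl marks, and the HP1 proteins bind methylated H3K9 through their chromodomain. UHRF1 recognises hemimethylated DNA behind the replication fork and recruits DNMT1, which copies the methylation to the new strand. MORC2 is an ATPase that compacts DNA and works with the HUSH complex, which also reads H3K9 trimethylation. Whether the RNA of these factors differs between MORC2 KO and WT is the question that the comparison addresses, within the limits of 2 samples a group.

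None of the 10 genes was called different between MORC2 KO and WT at an adjusted p under 0.05 in edgeR, where the background was 0.618% of all genes tested (0.588% higher and 0.03% lower in KO). At an unadjusted p under 0.05 the count was also 0 of 10, against a background of 14.3% (8.14% higher and 6.17% lower), and DESeq2 called 0 as well. The count at the unadjusted threshold depends on the scaling and the filter. CBX5 passed it in edgeR with upper quartile factors (adjusted p = 0.316), library size alone (adjusted p = 0.285), the trend on abundance removed (adjusted p = 0.240) and no filter on low counts (adjusted p = 0.135). Of all genes tested, 98 were called higher and 5 lower, or 191 and 110 with the trends on GC content and gene length removed. The 95% interval of the log2 fold change lay within 0.25 of 0 in 9 of the 10 genes, and CBX5 was the exception. CBX5 was also the only gene of the 10 with a positive log2 fold change, and its value came mainly from MORC2 KO replicate 2. In the plot of levels by sample the 4 symbols of each gene lie close together beside the differences between genes.

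**Figure D1:**
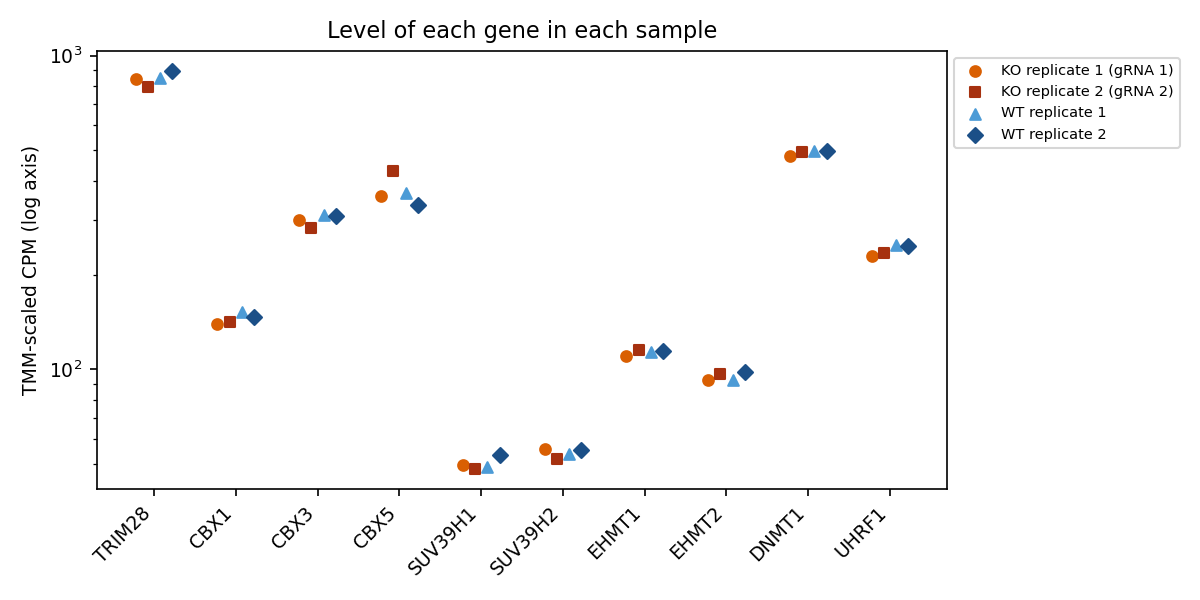
TMM-scaled CPM of the 10 genes on a log axis, with 1 symbol for each of the 4 samples. Levels run from 48.2 CPM for SUV39H1 to 896 CPM for TRIM28, and CBX5 in MORC2 KO replicate 2 (430 CPM) is the symbol that stands furthest from the others of its gene.

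The samples gave between 53970043 and 64312514 counts of read pairs on genes. Replicates of a group differed by more than sampling noise, with a chi-square of 16.8 per degree of freedom for KO and 6.56 for WT. MORC2 RNA was 53.1 ± 2.69 CPM (SD, n = 2) in KO and 86.97 ± 1.06 CPM (SD, n = 2) in WT, which is the check of the labels that RNA allows. CPM are counts scaled to a common library size with trimmed mean of M-values (TMM) factors. Of the markers of the line, NEFL and INA were at 63.5 to 74.8 CPM in every sample, whereas PAX2 and LHX1 were at 0.507 to 1.60 CPM. The 7 markers of the line summed to 182 and 184 CPM in KO and to 175 and 178 CPM in WT. Markers of other cell types were at or near 0. COL1A2 had 0 counts in all samples, PTPRC and CD3E had at most 1 count, and COL1A1 was the highest at 3.1 to 4.0 CPM. Only 2 of the 10 markers of other cell types, ALB and COL1A1, passed the filter on low counts. These 2 summed to 3.40 and 3.27 CPM in KO and to 4.10 and 3.89 CPM in WT. The part of either list in the results was not tested. MORC2 KO replicate 2 stood apart. The median absolute difference in log2 CPM from the mean of the WT samples was 0.148 for it and 0.0804 for MORC2 KO replicate 1, so values without each KO sample are given below.

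Promoter sequence is shown for CBX3 and CBX5, which each start head to head with an RNA-binding protein gene, and for the partners DNMT1 and UHRF1. The windows run from 250 bases before to 50 bases after the most upstream RefSeq start on GRCh38.p14, 5′ to 3′ on the strand of the gene, and capitals mark each CG dinucleotide, the site that DNMT1 and UHRF1 maintain in methylated form. They lie at chr7:26201193-26201492 (plus strand), chr12:54280073-54280372 (minus strand), chr19:10194904-10195203 (minus strand) and chr19:4909251-4909550 (plus strand).
CBX3: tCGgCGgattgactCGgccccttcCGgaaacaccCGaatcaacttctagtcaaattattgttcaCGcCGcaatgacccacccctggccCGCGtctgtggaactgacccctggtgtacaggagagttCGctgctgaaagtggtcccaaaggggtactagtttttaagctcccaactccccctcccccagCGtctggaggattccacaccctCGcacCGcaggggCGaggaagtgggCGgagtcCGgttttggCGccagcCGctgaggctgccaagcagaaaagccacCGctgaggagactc
CBX5: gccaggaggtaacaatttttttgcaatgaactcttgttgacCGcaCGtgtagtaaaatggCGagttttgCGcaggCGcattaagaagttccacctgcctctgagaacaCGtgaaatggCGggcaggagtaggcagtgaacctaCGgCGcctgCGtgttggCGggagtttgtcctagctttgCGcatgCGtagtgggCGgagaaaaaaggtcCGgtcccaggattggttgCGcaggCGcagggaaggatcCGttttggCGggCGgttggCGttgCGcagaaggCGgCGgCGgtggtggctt
DNMT1: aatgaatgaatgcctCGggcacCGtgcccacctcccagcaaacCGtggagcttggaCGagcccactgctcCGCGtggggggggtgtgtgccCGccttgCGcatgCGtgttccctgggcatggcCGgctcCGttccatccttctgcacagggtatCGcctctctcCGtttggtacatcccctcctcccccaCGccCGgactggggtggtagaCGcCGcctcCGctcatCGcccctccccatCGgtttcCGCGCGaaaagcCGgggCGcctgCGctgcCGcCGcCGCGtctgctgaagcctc
UHRF1: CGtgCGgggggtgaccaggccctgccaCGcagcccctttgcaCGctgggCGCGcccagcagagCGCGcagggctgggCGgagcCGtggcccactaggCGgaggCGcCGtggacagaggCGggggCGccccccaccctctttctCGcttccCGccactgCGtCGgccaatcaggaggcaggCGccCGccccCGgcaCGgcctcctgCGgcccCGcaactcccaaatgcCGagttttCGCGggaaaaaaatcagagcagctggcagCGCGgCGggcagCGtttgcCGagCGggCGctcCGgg

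RefSeq windows were matched for 9 of the 10 genes, all but TRIM28. They held a median of 30 CG dinucleotides in 300 bases, against 13 for the first windows of 27305 genes. EHMT1 had the most with 51 and SUV39H1 the fewest with 7. SUV39H1 has 2 windows, and CBX5 and UHRF1 have 3 each, of which the most upstream is described here. E2F factors switch on genes of DNA replication, and their site was searched for as TTTCCCGC, TTTCGCGC, TTTGCCGC or TTTGGCGC on both strands, where TTTCGCGC can overlap its own reverse complement. These letters occurred in 3 of the 9 windows, those of CBX3, DNMT1 and UHRF1. Of the first windows of the 27305 genes, whether or not these passed the filter on low counts, 3.34% held them. Counted over every window of a gene, the letters lay in 2 of 3 for UHRF1, 0 of 3 for CBX5 and 0 of 2 for SUV39H1. They also occurred in 9 of the 12 windows matched for the 15 S phase genes, which held a median of 34.5 CG dinucleotides. Each searched sequence contains a CG, and the part of CG content in these shares was not tested. The match describes the letters and does not show a bound site.

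TRIM28 (Entrez 10155) spans 61641740 to 61648391 of chromosome 19 (CHM13v2.0, the build of all gene positions given here), on the plus strand with 17 exonic blocks. It was the most abundant of the 10 genes, with 844 and 796 CPM in KO and 849 and 896 CPM in WT. Both KO values lay below both WT values, but the nearest KO and WT samples were closer to each other than the replicates of either group. The log2 fold change was -0.09 (standard error 0.07, 95% interval -0.24 to 0.06, adjusted p = 0.565 in edgeR), that is 94.0% of WT. Tested genes of like abundance, within 0.5 log2 CPM, had a median log2 fold change of -0.10. Without MORC2 KO replicate 1 it was -0.15 with an adjusted p of 0.0430, and without MORC2 KO replicate 2 it was -0.05. With the trend on abundance removed it was -0.0028 (adjusted p = 0.987 in edgeR), and with the trends on GC content and gene length removed it was -0.15 (adjusted p = 0.380 in edgeR).

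HP1 proteins bridge nucleosomes that carry H3K9 methylation. CBX3 encodes HP1 gamma, which is found in euchromatin as well as heterochromatin, CBX1 encodes HP1 beta, and CBX5 encodes HP1 alpha, the form most typical of constitutive heterochromatin. CBX3 (Entrez 11335, chromosome 7 from 26337121 to 26349288, plus strand) was at 299 and 282 CPM in KO and at 311 and 307 CPM in WT. The groups did not overlap, and the log2 fold change was -0.09 (standard error 0.06, 95% interval -0.22 to 0.04, adjusted p = 0.515 in edgeR). Without MORC2 KO replicate 1 it was -0.14 with an adjusted p of 0.0443, and without MORC2 KO replicate 2 it was -0.05 with an adjusted p of 0.841. The abundance offsets gave -0.02 and the GC content and length offsets -0.14. Multi-mapping reads were counted, but the only CBX3 pseudogene in the table, CBX3P2, had 20 to 28 counts a sample against at least 16358 for CBX3.

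CBX1 (Entrez 10951, chromosome 17 from 48931877 to 48964812, minus strand) was at 139 and 142 CPM in KO and at 152 and 147 CPM in WT. Both KO values were again the lower ones. The log2 fold change was -0.09 (standard error 0.06, 95% interval -0.21 to 0.03, adjusted p = 0.478 in edgeR). It was -0.09 without MORC2 KO replicate 1 and -0.10 without MORC2 KO replicate 2, but -0.04 with abundance offsets, -0.05 with library size alone and -0.13 with GC content and length offsets.

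CBX5 (Entrez 23468, chromosome 12 from 54197516 to 54246699, minus strand) was at 357 and 430 CPM in KO and at 364 and 335 CPM in WT. MORC2 KO replicate 2 was the highest sample, while MORC2 KO replicate 1 lay between the WT samples, so the groups overlapped. The log2 fold change was 0.17 (standard error 0.08, 95% interval -0.01 to 0.35, adjusted p = 0.375 in edgeR), or 113% of WT with an interval from 99.2% to 128%. Set against the WT mean, the difference in log2 CPM was 0.03 for MORC2 KO replicate 1 and 0.30 for MORC2 KO replicate 2. Without MORC2 KO replicate 1 the log2 fold change was 0.29 with an adjusted p of 8.13e-04, and without MORC2 KO replicate 2 it was 0.03.

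With MORC2 KO replicate 2 as the lone KO sample, edgeR called TRIM28, CBX3 and CBX5, 3 of the 10, while 20.5% of all genes tested were called. That test assumes that the lone KO sample varies as the WT samples do. edgeR called 0 of the 10 without MORC2 KO replicate 2, without WT replicate 1 and without WT replicate 2, where the background was 1.02%, 0.926% and 0.595%, and 0 with the replicate number as a block, where it was 1.67%. A block with the numbers crossed, which pairs MORC2 KO replicate 1 with WT replicate 2 and was chosen after seeing the data, called CBX5 (0.17, adjusted p = 0.026 in edgeR) and 10.3% of all genes tested. The gap between the KO replicates also moved with gene length. CBX5 has 11863 exonic bases in the table, and among the 1727 tested genes over 8000 bases the median difference in log2 CPM between MORC2 KO replicate 2 and replicate 1 was 0.09, against -0.07 in the 1283 genes under 1000 bases. CBX5 was at 0.27, and 14.4% of the genes over 8000 bases lay above it, against 11.6% to 22.7% in the shorter length classes. Between WT replicate 2 and WT replicate 1 the median difference was -0.07 over 8000 bases and -0.03 under 1000. It was 0.02 in each length class from 1000 to 4000 bases, and CBX5 was at -0.12 between the WT replicates. The part of length in the value of CBX5 was not tested beyond the offsets that follow. With the trends on GC content and gene length removed, the log2 fold change of CBX5 was 0.14 (adjusted p = 0.366 in edgeR), and with the trend on abundance removed it was 0.25 (adjusted p = 0.240 in edgeR).

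CBX3, CBX5, EHMT1, EHMT2 and UHRF1 each have a gene on the opposite strand that starts within 1 kb in the authors' annotation. ARRDC1-AS1 starts 110 bp from EHMT1 and had a log2 fold change of 0.02. C2 starts 85 bp from EHMT2 and was at -0.04. ARRDC5 starts 199 bp from UHRF1 and had 0 counts in all samples. The start of HNRNPA2B1, which encodes a nuclear RNA-binding protein, lies 697 bp from that of CBX3, and the start of its relative HNRNPA1 lies 604 bp from that of CBX5. HNRNPA2B1 had a log2 fold change of -0.12 (95% interval -0.28 to 0.03), close to that of CBX3. HNRNPA1 was at -0.09 (95% interval -0.23 to 0.04), of the opposite sign to CBX5. HNRNPA2B1, HNRNPA1, ARRDC1-AS1 and C2 were not called, and the difference within each pair was not tested.

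The make-up of the HP1 transcripts was compared per kb of exonic length, since counts rise with length. CBX3 gave 62.2% and 58.9% of the summed HP1 CPM per kb in KO and 61.7% and 62.5% in WT. CBX1 gave 24.1% and 24.7% in KO and 25.1% and 24.99% in WT, and CBX5 gave 13.6% and 16.5% in KO and 13.2% and 12.5% in WT. CBX3 was thus the most and CBX5 the least abundant HP1 transcript in every sample. The share of CBX5 was higher in both KO samples, although MORC2 KO replicate 1 differed from WT replicate 1 by less than the WT samples differed from each other. The 11863 exonic bases of CBX5 count every annotated exon, so shorter isoforms would make its level per kb an underestimate.

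**Figure D2:**
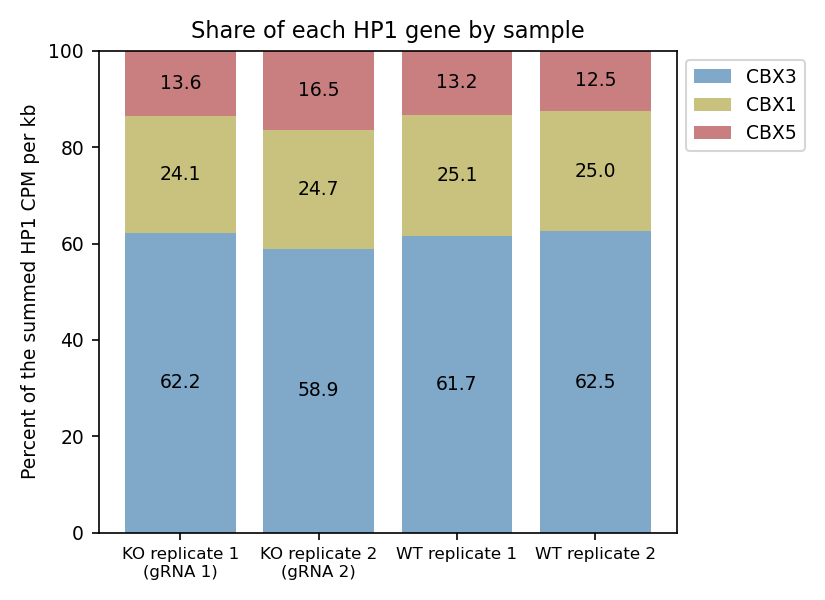
Stacked bars of the percentage of the summed HP1 CPM per kb that CBX3, CBX1 and CBX5 gave in each of the 4 samples. CBX3 gives 58.9% to 62.5% in each bar, and the CBX5 segment is tallest in MORC2 KO replicate 2 at 16.5%.

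The SUV39H genes were the least abundant of the 10 by CPM. SUV39H1 (Entrez 6839, chromosome X from 48106035 to 48119497, plus strand) was at 49.7 and 48.2 CPM in KO and at 48.8 and 53.3 CPM in WT, with overlapping groups. Its log2 fold change was -0.06 (standard error 0.06, 95% interval -0.20 to 0.08, adjusted p = 0.672 in edgeR), with -0.10 without MORC2 KO replicate 1 and -0.04 without MORC2 KO replicate 2. SUV39H2 (Entrez 79723, chromosome 10 from 14892831 to 14918279, plus strand) was at 55.7 and 51.9 CPM in KO and at 53.8 and 55.4 CPM in WT. The KO samples were both the highest and the lowest, and the log2 fold change was -0.02 (standard error 0.06, 95% interval -0.15 to 0.11, adjusted p = 0.904 in edgeR). Without MORC2 KO replicate 1 it was -0.09, and without MORC2 KO replicate 2 it was 0.03. SUV39H2 shares 4.87% of its exonic bases with DCLRE1C on the opposite strand, where the counting left out read pairs that overlapped both genes.

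EHMT1 encodes GLP and EHMT2 encodes G9a. EHMT1 (Entrez 79813, chromosome 9 from 149870687 to 150093989, plus strand) was at 110 and 115 CPM in KO and at 114 and 115 CPM in WT. Its log2 fold change was -0.02 (standard error 0.06, 95% interval -0.14 to 0.10, adjusted p = 0.905 in edgeR). Its groups overlapped, with MORC2 KO replicate 2 above both WT samples. Without MORC2 KO replicate 1 the value was -0.0037, and without MORC2 KO replicate 2 it was -0.05. EHMT2 (Entrez 10919, chromosome 6 from 31732994 to 31750940, minus strand) was at 92.3 and 96.9 CPM in KO and at 92.5 and 98.1 CPM in WT. The log2 fold change was -0.01 (standard error 0.06, 95% interval -0.14 to 0.12, adjusted p = 0.952 in edgeR), the smallest of the 10 genes. It was 0.01 without MORC2 KO replicate 1 and -0.05 without MORC2 KO replicate 2. EHMT2 shares 11.9% of its exonic bases with the antisense gene EHMT2-AS1, which had 12 to 19 counts a sample. The ratio of EHMT1 to EHMT2 per kb was 0.628 ± 0.00335 (SD, n = 2) in KO and 0.632 ± 0.0232 (SD, n = 2) in WT.

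DNMT1 (Entrez 1786, chromosome 19 from 10259569 to 10321116, minus strand), the maintenance DNA methyltransferase, was at 480 and 493 CPM in KO and at 498 and 499 CPM in WT. Both KO samples lay below the WT samples, although MORC2 KO replicate 2 was closer to the WT samples than to MORC2 KO replicate 1. The log2 fold change was -0.04 (standard error 0.06, 95% interval -0.17 to 0.10, adjusted p = 0.825 in edgeR). It was -0.03 without MORC2 KO replicate 1 and -0.05 without MORC2 KO replicate 2. UHRF1 (Entrez 29128, chromosome 19 from 4888314 to 4947375, plus strand) was at 230 and 236 CPM in KO and at 250 and 248 CPM in WT, and its groups did not overlap. Its log2 fold change of -0.10 was the lowest of the 10 genes (standard error 0.06, 95% interval -0.22 to 0.03, adjusted p = 0.455 in edgeR), and it was -0.09 without MORC2 KO replicate 1 and -0.11 without MORC2 KO replicate 2. It depended on the scaling, with -0.04 for abundance offsets, -0.06 for library size alone and -0.13 for GC content and length offsets. Without MORC2 KO replicate 2 its unadjusted p was 0.030 (adjusted p = 0.409 in edgeR). Per kb, the ratio of DNMT1 to UHRF1 was 2.01 and 2.01 in KO and 1.92 and 1.93 in WT. The difference in this ratio was not tested.

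DNMT1 and UHRF1 are transcribed most in S phase, and genes of DNA replication were therefore read beside them. The 15 S phase genes had a median log2 fold change of -0.06, and 14 of them were negative, where 68.5% of the tested genes at or above the lowest of the 10 genes in abundance were negative. None was called in edgeR or DESeq2, and 3 were lower at an unadjusted p under 0.05, against 6.17% of all tested genes. Their lowest p-values were those of the flap endonuclease gene FEN1 at -0.15 (adjusted p = 0.295), the ribonucleotide reductase gene RRM2 at -0.16 (adjusted p = 0.302) and the thymidylate synthase gene TYMS at -0.14 (adjusted p = 0.314, all in edgeR). The summed level of the list was 4300 and 4095 CPM in KO and 4305 and 4464 CPM in WT. MORC2 KO replicate 1 and WT replicate 1 were closer to each other than the replicates of either group. The median of 10 mitotic genes was -0.03, and none was called by either tool. None lay at an unadjusted p under 0.05, against 14.3% of all tested genes. The part of these values in the level of DNMT1 and UHRF1 was not tested.

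**Figure D3:**
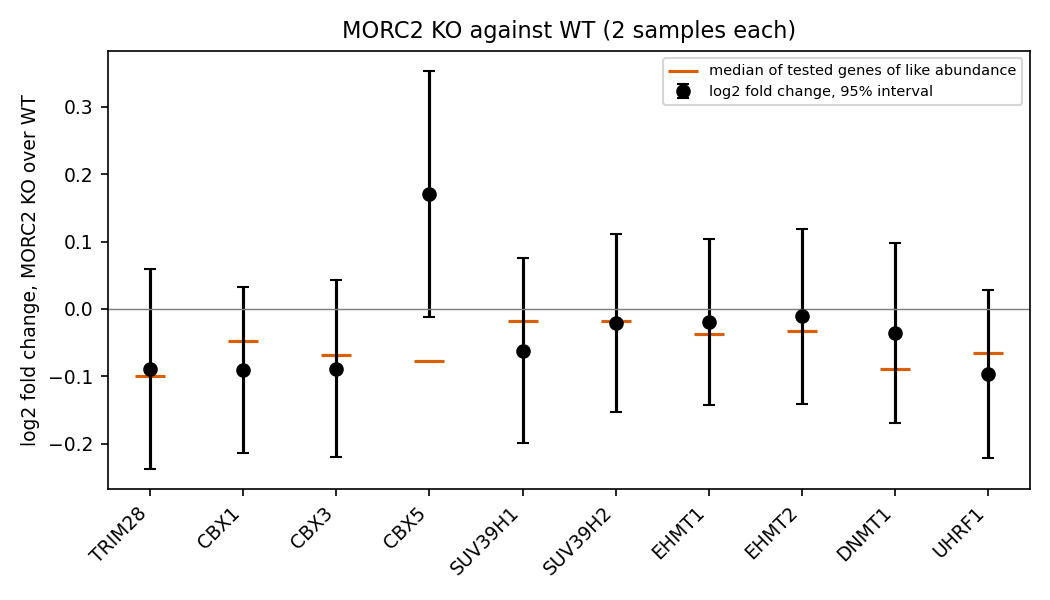
Log2 fold change of MORC2 KO over WT for each of the 10 genes (black points, with 95% intervals from edgeR) beside the median of tested genes within 0.5 log2 CPM of it (orange lines). All intervals include 0, and CBX5 at 0.17 is the point furthest from its orange line at -0.08.

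The negative sign of 9 of the 10 values was read against genes of like abundance. All 10 genes had a mean log2 CPM of at least 5.64. Of the 5051 tested genes at or above that level, 68.5% had a negative log2 fold change, and their median was -0.04 against -0.05 for the 10 genes and 0.01 for all genes tested. The median absolute log2 fold change was 0.08 for the 10 genes, 0.07 for the abundant genes and 0.10 for all tested genes. In TRIM28, CBX1, CBX3, DNMT1 and UHRF1 both KO samples lay below both WT samples. These 5 of 10 genes stand beside 23.4% of all tested genes and 38.8% of the abundant ones, and in none of the 10 did both KO samples lie above, which 24.1% of tested genes did. Groups that did not overlap in either direction made up 47.5% of the genes tested, so 5 of 10 is near the background.

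The order of the levels per kb differed little between samples. From the highest to the lowest mean it was TRIM28 (237 to 266 CPM per kb over the 4 samples), CBX3 (130 to 143), DNMT1 (90.8 to 94.4), CBX1 (53.3 to 58.2), UHRF1 (45.2 to 49.2), CBX5 (28.2 to 36.3), EHMT2 (18.5 to 19.7), SUV39H2 (15.9 to 17.1), SUV39H1 (15.8 to 17.5) and EHMT1 (11.7 to 12.1). Only SUV39H2 and SUV39H1 had overlapping ranges among neighbours, and they changed places in WT replicate 2. The ratio of SUV39H1 to SUV39H2 per kb was 0.973 ± 0.0279 (SD, n = 2) in KO and 0.999 ± 0.0414 (SD, n = 2) in WT. TRIM28 was above 98.9% of tested genes by mean CPM per kb and EHMT1 above 68.1%.

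With each sample left out in turn, TRIM28, CBX1, CBX3, EHMT1, DNMT1 and UHRF1 stayed negative and CBX5 stayed positive, while SUV39H1, SUV39H2 and EHMT2 changed sign near 0. The range of CBX5 was the widest of the 10, from 0.03 to 0.29.

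**Figure D4:**
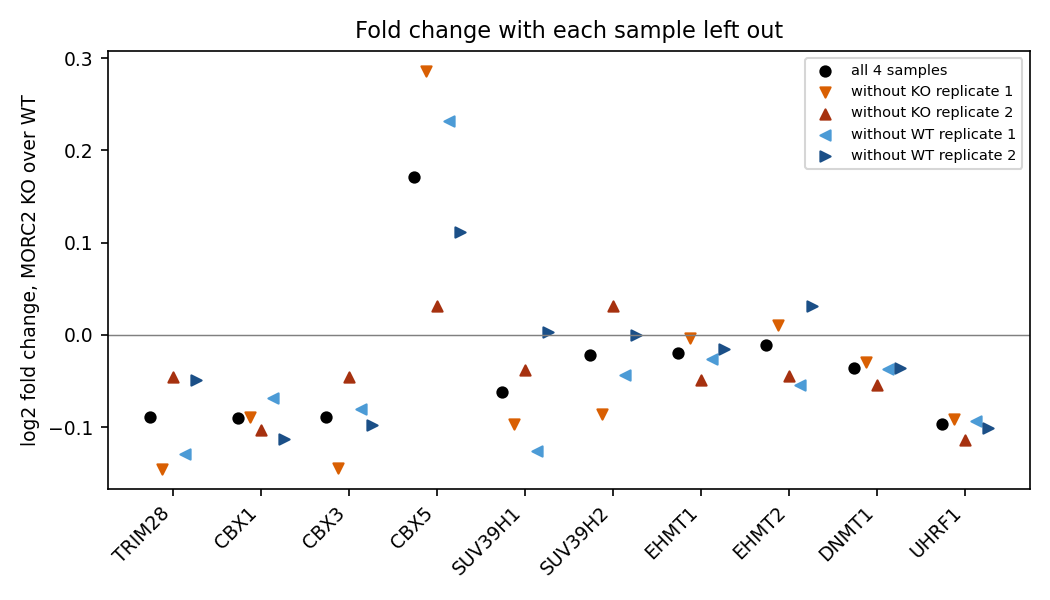
Log2 fold change of MORC2 KO over WT for each of the 10 genes with all 4 samples (black) and with each sample left out (coloured triangles). CBX5 ranges from 0.03 without MORC2 KO replicate 2 to 0.29 without MORC2 KO replicate 1.

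Other genes of the pathway were read in 6 lists, and edgeR and DESeq2 called 0 genes of each. Among 15 tested writers, cofactors and erasers of DNA methylation the median log2 fold change was 0.01. Of these, 0 had an unadjusted p under 0.05, against 14.3% of all tested genes. The lowest p-values were those of PCLAF, which encodes a PCNA-binding protein, at -0.12 (adjusted p = 0.413), of the de novo methyltransferase gene DNMT3A at 0.13 (adjusted p = 0.508) and of CDCA7, which encodes the partner of the remodeller HELLS, at 0.09 (adjusted p = 0.522). Of 8 methyl-CpG readers 1 was lower at an unadjusted p under 0.05, against 6.17% of all tested genes. This was MBD2, a reader that recruits the NuRD complex, at -0.16 (adjusted p = 0.285, all from edgeR).

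Of all tested genes 51.5% had a positive log2 fold change and 8.14% were higher at an unadjusted p under 0.05. The 12 other H3K9 and H4K20 methyltransferases and cofactors had a median log2 fold change of 0.07, with 9 positive and 2 higher at that threshold. These were ATF7IP2, whose product is related to the SETDB1 cofactor ATF7IP, at 0.26 (adjusted p = 0.278), and SETDB1, the H3K9 methyltransferase gene whose product TRIM28 recruits, at 0.14 (adjusted p = 0.307). KMT5B, which encodes an H4K20 methyltransferase that binds HP1, was at 0.11 (adjusted p = 0.445). Among 11 tested H3K9 demethylases the median was 0.06, and 1 was higher at an unadjusted p under 0.05. That gene was KDM7A at 0.20 (adjusted p = 0.328), with 35.1 and 42.1 CPM in KO and 35.6 and 31.7 CPM in WT. As for CBX5, MORC2 KO replicate 2 was its highest sample and MORC2 KO replicate 1 lay between the WT samples. KDM1A, the LSD1 gene, was at -0.11 (adjusted p = 0.425, all from edgeR).

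The 19 HP1 partners had a median log2 fold change of 0.00. Of them 2 were higher at an unadjusted p under 0.05, against 8.14% of all tested genes. LRIF1, whose product binds HP1 and SMCHD1, was at 73.3 and 70.8 CPM in KO and at 61.1 and 60.7 CPM in WT. Both KO samples lay above both WT samples, as in 24.1% of all tested genes. LRIF1 is named for the smallest p-value of the list. Its log2 fold change was 0.24 (standard error 0.06, 95% interval 0.12 to 0.37), and it was not called (adjusted p = 0.105 in edgeR). MIS12, which encodes a kinetochore protein that binds HP1, was at 0.21 (adjusted p = 0.234). Of 16 partners of the TRIM28 corepressor 13 were negative and 5 were lower at an unadjusted p under 0.05, with a median of -0.07. Of all tested genes 6.17% were lower at that threshold and 51.5% were positive, and of those at or above the lowest of the 10 genes in abundance 68.5% were negative. The lowest p-values were those of CHD3 and CHD4, the ATPases of the NuRD complex, at -0.16 and -0.17 (adjusted p = 0.268 and 0.271, both from edgeR). CHD4 was at 466 and 478 CPM in KO and at 542 and 519 CPM in WT. TRIM28 itself, at -0.09, lay near this median and near that of genes of its own abundance.

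**Figure D5:**
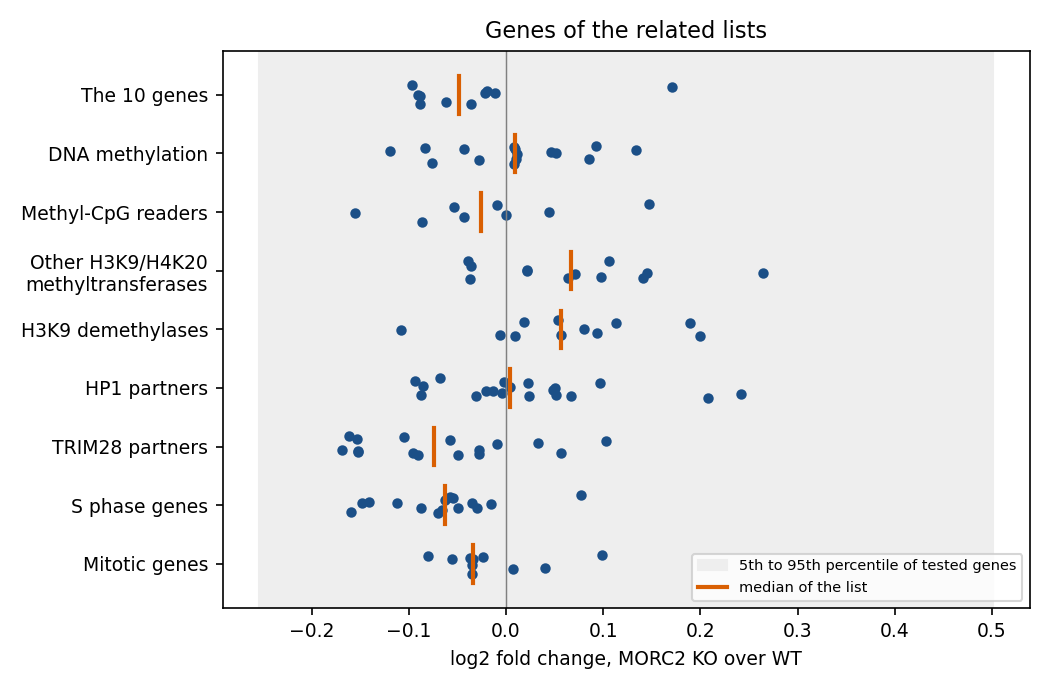
Log2 fold change of MORC2 KO over WT for the genes of each list (blue points, with orange lines at the medians) over the span from the 5th to the 95th percentile of all tested genes (grey). All list medians lie between -0.07 and 0.07, and the highest point is ATF7IP2 at 0.26.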

How the data were processed

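RNA was measured in 2 MORC2 KO and 2 WT samples of HEK293T. Per the file headers and the methods, the authors aligned read pairs of polyadenylated RNA to CHM13v2.0 with subread 2.0.6 and counted them with featureCounts 2.0.6 on strict RefSeq genes. The deposited values are raw counts of read pairs for 28775 genes. The recorded command counted multi-mapping reads, ignored strand and left out pairs that overlap several genes. Gene length, in bases, is that of the deposited table. There were 0 columns of other samples. Symbols came from RefSeq by Entrez identifier (28763 matched).

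The sample totals lay between 53970043 and 64312514, so the spread between 2 samples, and not depth, limits these genes. The methods call the WT replicates independent without saying whether they were separate cultures, and p-values measure only the spread between these samples, which may be technical. Genotype alone was fitted across 16675 genes (filterByExpr, TMM) in edgeR 4.0.16 (R 4.3.3) with the older quasi-likelihood F-test, as the study did, and Benjamini-Hochberg adjustment over all of them. The standard error of a log2 fold change is its size over the root of its F statistic, and 95% intervals use the t distribution with the moderated degrees of freedom. Fold changes are differences on the log2 scale, and single-sample log2 CPM used a prior count of 2.

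Results were recomputed with DESeq2 1.42.0, the newer edgeR form, robust dispersion estimates, RLE, upper quartile and no scaling, loess offsets (span 0.3) on abundance or on GC content and length (GENCODE 29 transcripts, 94.9% of genes), other filters, an adjusted p under 0.10, the replicate number as a term (and, added after seeing the data, the numbers crossed), each sample left out, and CBX3P2 counts added to CBX3. The scripts were tested on simulated data. The genes named are MORC2, the 10 genes, at most 3 genes of each list by smallest p, neighbours that start within 1 kb on the opposite strand or share exonic bases, and pseudogenes. Markers were named after their values were seen, and some genes that the rule takes are not reported here. The members and lists were chosen with earlier results of these data known. Promoter windows are those of RefSeq on GRCh38.p14, and no coordinates were converted between builds.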

Additional observations from a re-analysis of the deposited data

How the results depend on the processing

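The 12 alternatives on all 4 samples without a block called 0 of the 10 genes. Without 1 sample the count was 0 to 3, with all 3 calls made without MORC2 KO replicate 1. Over the table, 98 genes were called higher and 5 lower. Leaving out 1 sample gave 1397 and 2117 without MORC2 KO replicate 1, 142 and 30 without MORC2 KO replicate 2, 149 and 9 without WT replicate 1, and 88 and 14 without WT replicate 2. Nothing states that the replicate numbers pair the samples, and their deviations correlated at -0.124. The replicate block called 0 of the 10, with 237 genes higher and 42 lower. The crossed replicate block (MORC2 KO replicate 1 with WT replicate 2, and the reverse), chosen after seeing the data, called 1 of the 10, CBX5, with 903 higher and 809 lower. DESeq2 called 17 genes lower, loess offsets on abundance 8 and an adjusted p under 0.10 15. GC content and length offsets gave 191 higher and 110 lower, and no low count filter gave 463 and 182. The cause was not tested. Values of the 10 genes that changed sign stayed near 0. EHMT2 was at 0.0054 with upper quartile factors. With library size alone SUV39H2 was at 0.018, EHMT1 at 0.020, EHMT2 at 0.029 and DNMT1 at 0.0040. With loess offsets on abundance EHMT1 was at 0.017, EHMT2 at 0.020 and DNMT1 at 0.045. With 1 sample left out, SUV39H1 ranged from -0.13 to 0.0028, SUV39H2 from -0.086 to 0.031 and EHMT2 from -0.054 to 0.032. TRIM28, CBX1, CBX3 and UHRF1 stayed negative, nearest to 0 with loess offsets on abundance (-0.0028, -0.045, -0.022 and -0.036) and furthest with GC content and length offsets (-0.15, -0.13, -0.14 and -0.13). CBX5 lay between 0.14 and 0.25 over the 13 alternatives (block included, crossed block not) on all 4 samples, with adjusted p-values from 0.135 to 0.548 in edgeR or DESeq2.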
